A study of Rattus norvegicus with 32 samples.

Results

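The left ventricles of 6 male rats with abdominal sepsis that received landiolol were compared with those of 5 septic males that did not, which are 11 of the 32 arrays of the series. The arrays were chosen by the sex and the treatment that their labels give, and no measured value entered the choice. Male Wistar rats aged 9 to 12 weeks underwent cecal ligation and puncture (CLP), in which the cecum is tied off and pierced so that gut bacteria reach the abdomen. From 1 h after CLP the CLP plus landiolol group was infused with landiolol at 0.1 mg/kg/min in saline, and the CLP group was infused with saline alone at a similar volume. Another 5 males underwent sham surgery with saline. Buprenorphine was the drug for pain control. Hearts were taken at 20 h, after magnetic resonance imaging of the living rat and perfusion of the isolated heart, and RNA of each left ventricle went onto an Agilent 1-colour array of its own. The rats were not tied into pairs by the labels, and each array stands for 1 rat. The comparison asks which transcripts of the septic ventricle differ when the β1-adrenergic receptor is blocked.

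Noradrenaline and adrenaline reach cardiac muscle cells mainly through the β1-adrenergic receptor. The receptor acts through a stimulatory G protein and adenylyl cyclase to raise cyclic AMP (cAMP), which activates protein kinase A and, in the nucleus, transcription factors of the CREB family at cAMP response elements. Phosphodiesterases break cAMP down, A-kinase anchoring proteins hold the kinase near its targets, and G protein-coupled receptor kinases switch the receptor off. Landiolol is a short-acting and selective blocker of this receptor. In sepsis the heart is exposed to catecholamines, cytokines and glucocorticoids together.

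Values are log2 intensities after quantile normalisation over the 16 male arrays, so a step of 1 is a 2-fold difference. A difference is the mean of the CLP plus landiolol group minus that of the CLP group, given with its standard error, and a probe was called at a false discovery rate of 5% (limma, Benjamini-Hochberg over all probes tested). Of 25864 probes, 403 were called (1.56%), 208 higher with landiolol (0.804%) and 195 lower (0.754%). They stood for 361 genes, 194 higher and 167 lower. In 277 of the 403 called probes the 11 arrays did not overlap between the groups, and without regard to the test 585 probes (2.26%) did not overlap. The smallest called difference was 0.37 in size, the median 0.97, and 189 called probes differed by more than 2-fold, 27 of them by more than 4-fold. Both groups were well above background on every array for 344 of the called probes, and 73 called probes had no gene symbol.

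The landiolol arrays spanned a wider range of detection than the CLP arrays. Between 63.8% and 65.3% of the spots were well above background on the CLP arrays and between 59.5% and 67.7% on the CLP plus landiolol arrays, and 0 spots were saturated. Mean numbers of such spots were 37985 and 37696 (exact permutation test over arrays, two-sided, p = 0.736, where 0.00216 is the smallest possible). Median signals ran from 80.1 to 118 in CLP and from 49.2 to 119 with landiolol (means 104 and 92.6, exact permutation test, p = 0.437). The dimmest array was landiolol replicate 5, and it and CLP replicate 1 had the lowest mean correlation with their groups in males given CLP (0.965 and 0.970). Without CLP replicate 1 the number of genes called was 950, of which 350 were among the 361. It was 150 without CLP replicate 3, 113 without CLP replicate 4, 228 without CLP replicate 5, and 225, 169, 212 and 200 without landiolol replicates 1, 2, 3 and 6, while leaving out any other male array gave 282 to 391. Of 10 cardiomyocyte markers all passed the filter. Their summed level lay between 20.98 and 21.18 in CLP and between 20.92 and 21.24 with landiolol, and 0 of the 10 were called by limma, by SAM or with array weights, or had an unadjusted p under 0.05. Over all genes with a symbol these shares were 1.80%, 3.95%, 6.39% and 16.4%. A lower or higher level in a whole ventricle can come from a change in the number of cells of a type or in the RNA per cell, and these cannot be told apart here.

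The largest rises were taken among called genes that the male files name and whose CLP and landiolol arrays do not overlap. They included an oxidase, scaffolds, a chemokine receptor and a muscle ubiquitin ligase adaptor. Cyp2e1, a cytochrome P450 that oxidises ethanol and other small molecules, had levels of 8.93, 8.69, 9.10, 6.88 and 8.39 on the CLP arrays. With landiolol its lowest, median and highest levels were 10.67, 11.36 and 11.66. Every landiolol array lay above every CLP array, and also above the sham mean of 7.79 ± 0.76 (SD, n = 5), within 1 SD of which lay the CLP mean of 8.40. The rise was 2.90 ± 0.39 or 7.45-fold (limma adjusted p = 0.00309), and the probe lies at chr1:200927736-200927795 of build rn4.

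Aldh3a1, an aldehyde dehydrogenase, stood at 7.95, 8.57, 7.26, 6.69 and 8.36 in CLP. The landiolol arrays lay at 9.22, 9.74 and 10.05 (lowest, median, highest) and covered the sham level of 9.63 ± 0.54, so the difference of 1.91 ± 0.32 (adjusted p = 0.00768) left the group near sham. A brighter second probe of Aldh3a1 differed by 0.45 and was not called (adjusted p = 0.209). Epn3, an adaptor of endocytosis, rose by 1.69 ± 0.30 from 7.46, 8.02, 7.62, 7.75 and 8.07 to 8.30, 9.75 and 10.24 (lowest, median, highest), with 5 of 6 arrays above its sham mean of 8.36 ± 0.41 (adjusted p = 0.0124). Grip2, a scaffold that binds glutamate receptors, was at 7.07, 6.70, 6.07, 6.61 and 6.22 in CLP against 7.36, 8.15 and 8.39 with landiolol and 8.26 ± 0.29 in sham. The groups did not overlap, as the choice required, and the difference was 1.47 ± 0.21 (adjusted p = 0.00448).

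Dnah11, a dynein heavy chain of cilia, rose by 1.55 ± 0.27 and Ccr9, a chemokine receptor of lymphocytes, by 1.47 ± 0.27. In both genes CLP replicate 1 was the highest CLP array, at 10.49 and 9.67, and the lowest landiolol array lay above it at 10.61 and 9.84. Asb15, a muscle protein that recruits targets to a ubiquitin ligase, rose by 1.40 ± 0.22, and a second Asb15 probe by 1.14 ± 0.26 (adjusted p = 0.00531 and 0.0381). Colq, the collagen tail that anchors acetylcholinesterase at synapses, rose by 1.3 ± 0.19, and its landiolol arrays spanned only 9.90 to 10.40. Anxa10, an annexin, rose by 1.31 ± 0.24 and Rnf152, a ubiquitin ligase of lysosomes, by 1.3 ± 0.18, both to within 0.1 of their sham means of 12.52 and 7.31. A brighter second probe of Rnf152 differed by 0.84 and a dimmer one of Anxa10 by 1.13, and neither was called (adjusted p = 0.076 and 0.0842). The remaining members of the 15 largest rises were Tspo2 at 1.28, Zscan18 at 1.18, Rasgrp3, which activates Ras proteins, at 1.17, Actr3b, a relative of the actin-nucleating Arp3, at 1.15, and Plxnb3, a semaphorin receptor. On the CLP arrays Plxnb3 was never well above background, and with landiolol it was at least 1.98-fold higher. That bound holds for the background-subtracted signals alone, since Plxnb3 differed by 0.12 in the authors' log2 table and by 0.28 and 0.38 with normexp or no background correction, without a call (adjusted p = 0.572, 0.0805 and 0.0537). Among the called genes named here, Nmrk2, which the male files do not name, also rose by more than some of these. So did Asb18, Ctgf and Nupr1, whose groups overlap, and all are described with their lists. Leaving out CLP replicate 4, and no other of the 16 male arrays, ended the calls of Ccr9 and Anxa10 (adjusted p = 0.0521 and 0.0521). The calls of Tspo2, Rasgrp3, Plxnb3, Zscan18 and the second Asb15 probe were less firm and ended without any 1 of 11, 9, 6, 6 and 11 of the arrays, with adjusted p of up to 0.133, 0.131, 0.0997, 0.0642 and 0.118.

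The 15 largest falls were taken by the same rule and ordered by the measured levels. Tgm1, a transglutaminase that cross-links proteins of the skin barrier, had CLP levels of 11.32, 11.75, 13.20, 13.24 and 12.63. Its landiolol arrays lay at 8.18, 8.58 and 9.76 (lowest, median, highest), with no overlap and closer to the sham mean of 7.54 ± 1.29. It fell by 3.60 ± 0.54 (12.1-fold, adjusted p = 0.00496), the most of the 15. Tgm1 lay at chr15:33846599-33846658 (rn4), and of the 11 genes of transglutaminases and the cornified envelope it was the 1 called (9.09%, against 1.80% over all genes with a symbol). The lists were chosen with earlier results of these data known, so the shares given here and below are descriptions and not tests.

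Cenpa, the histone H3 variant of centromeres, was at 6.97, 6.83, 7.38, 7.69 and 6.39 in CLP and at 3.14, 4.30 and 4.62 with landiolol, where 2 of 6 arrays were well above background. In sham 2 of 5 arrays were well above background, so this probe passed the filter through the CLP group alone. Cenpa fell by 2.97 ± 0.48 (adjusted p = 0.00699), while a brighter second probe differed by -0.65 (adjusted p = 0.326). Of 53 genes of the cell cycle and DNA replication 0 were called through their brightest probe (against 1.80% over all genes with a symbol). Tmem119, a membrane protein known from bone and microglia, fell by 2.5 ± 0.46 (adjusted p = 0.0141), with 3 of 6 landiolol arrays well above background. Its CLP arrays reached from 5.34 to 7.92 and its highest landiolol array lay just under them at 5.33. With several of the landiolol arrays near background the sizes of both falls depend on how the background is treated, and with normexp the differences were -1.26 for Cenpa and -1.13 for Tmem119.

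For 3 of the genes that fell, no landiolol array was well above background, so only a bound can be given. Adora3, the A3 adenosine receptor, was at 6.05, 5.97, 5.77, 6.56 and 6.32 in CLP and was at least 3.69-fold lower with landiolol (adjusted p = 0.00496). The secreted ligand Wnt9b, at 5.45, 5.22, 6.04, 6.36 and 4.90 in CLP, was at least 2.54-fold lower (adjusted p = 0.00653), and Defb4, an antimicrobial β-defensin, was at least 2.28-fold lower (adjusted p = 0.00962). Their sham means were also low, at 3.51, 3.66 and 1.90, with 1, 2 and 0 of 5 sham arrays well above background. These probes passed the filter through the CLP group, and their bounds hold for the background-subtracted signals alone. With normexp the differences were -0.84, -0.61 and -0.55, and in the authors' log2 table -1.17, -0.66 and -0.62, where Wnt9b was not called (adjusted p = 0.108). Defb4 was not called when only the 11 arrays compared were fitted (adjusted p = 0.0525). Wnt9b was the 1 member called of 50 genes of Wnt ligands, receptors and targets (2%, against 1.80%), and their median difference was 0.00.

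Dyrk3, a protein kinase, fell by 2.32 ± 0.48 and Itgb6, the β6 integrin subunit, by 2.22 ± 0.41, with a dimmer Itgb6 probe at -1.92 that was not called (adjusted p = 0.0973). Ptprn, a protein of secretory granules, fell by 2.12 ± 0.40 with 1 of 6 landiolol arrays well above background and by 0.52 with normexp, and its brighter second probe fell by 1.05 ± 0.22 (adjusted p = 0.0296). Rd3l fell by 2.09 ± 0.31 on 1 probe and by 2.07 ± 0.32 on the other. Ttc27, a protein of tetratricopeptide repeats, went from 12.09, 12.25, 12.44, 11.57 and 11.26 in CLP to 9.92, 10.18 and 10.34, and fell by 1.76 ± 0.19 with the lowest adjusted p of the 30 genes with the largest changes (0.000533). Without CLP replicate 4 the calls of Dyrk3, Itgb6 and Ptprn ended (adjusted p = 0.0628, 0.0521 and 0.053), that of Ptprn also without CLP replicate 3 and that of Dyrk3 also without any of 4 further arrays.

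Cntnap1, a protein of the junction between axon and myelin, was the 1 gene of the 15 largest falls whose CLP mean did not exceed its sham mean. Its CLP levels of 8.68, 8.92, 9.30, 9.56 and 8.70 lay around the sham mean of 9.14 ± 0.22, and the landiolol arrays were lower than both, at 6.77, 7.04 and 7.84. It fell by 1.90 ± 0.21 (adjusted p = 0.000564).

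**Figure D1:**
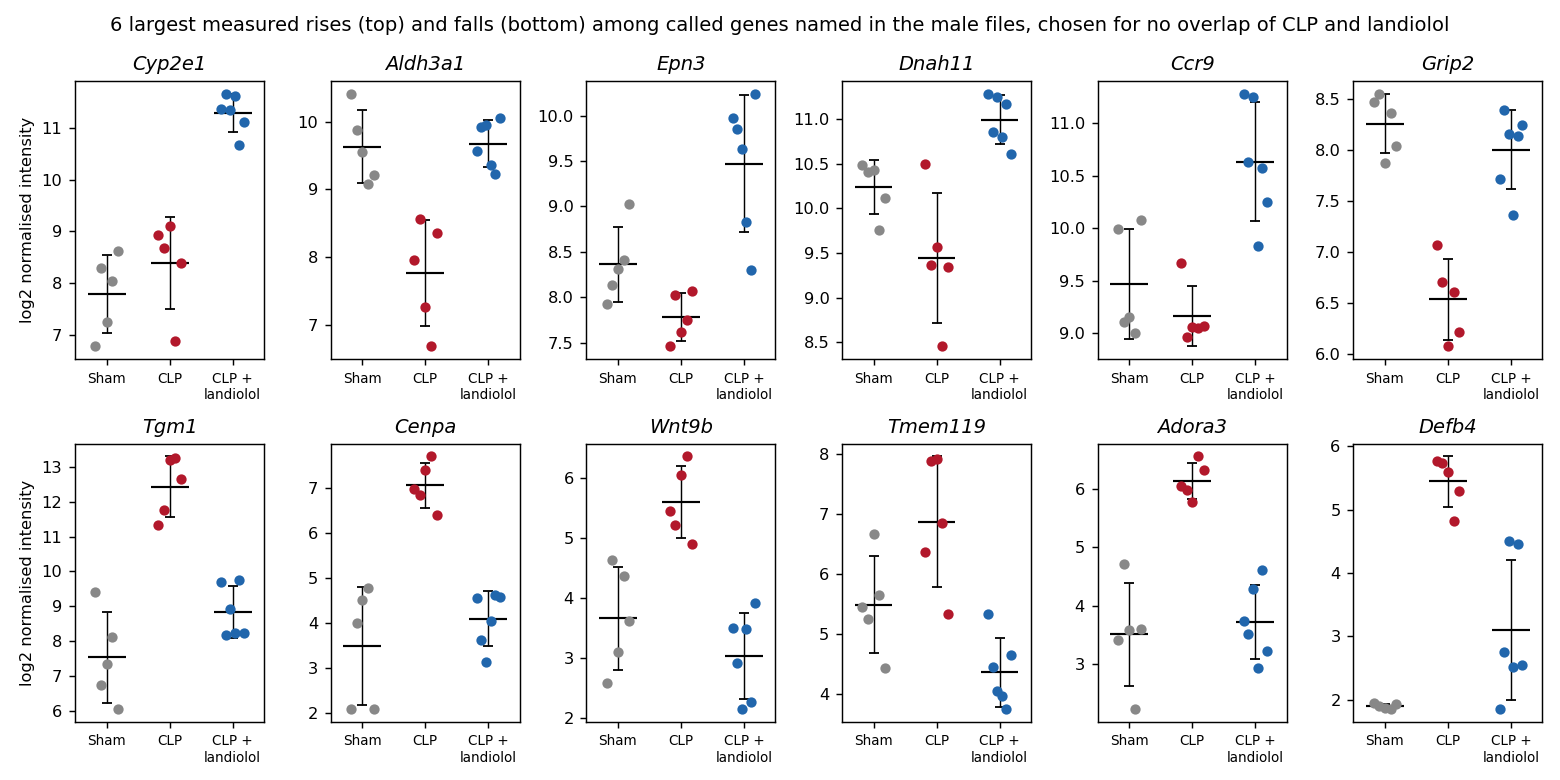
Log2 normalised intensity of the 6 genes that rose most and the 6 that fell most by measured level among called genes that the male files name and that were chosen for not overlapping, on each sham, CLP and CLP plus landiolol array of males (points), with the group mean and SD (bars). Each gene has its own vertical scale, the gap between CLP and CLP plus landiolol follows from the choice, no landiolol array of Wnt9b, Adora3 or Defb4 was well above background, and Cyp2e1 with landiolol lies above both other groups.

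Promoters were read for the letters of cAMP response elements and of other elements named after their factors. Of the 30 genes with the largest changes, 20 had an entry in the RefSeq promoter table of build GRCr8, and the 250 bases before the start of the first transcript listed were searched on both strands. The complete element TGACGTCA was found in 1 of the 20 (5%), Actr3b, against 1.59% of the table's 33469 windows of that length. Its first letters TGACG, which that element also holds, were found in 3 of 20 (15%, against 18.2%). The AP-1 letters TGANTCA were found in 3 (15%, against 6.34%), the STAT letters TTCNNNGAA in 2 (10%, against 7.67%) and the E-box CACGTG in 0 (against 5.59%). Shown are the promoters of 4 genes, 2 that rose and 2 that fell, each with a match in capitals. They are Actr3b (chr4:10089363-10089612, minus strand) with the complete element 73 bases before the start, Ptprn (chr9:84204824-84205073, minus strand) with its pair of TGACG matches in opposite orientation, Anxa10 (chr16:32504775-32505024, plus strand) with an AP-1 match 172 and another 13 bases before the start, and Itgb6 (chr3:65530334-65530583, minus strand) with a STAT match. A match is a run of letters and says nothing of binding.
Actr3b: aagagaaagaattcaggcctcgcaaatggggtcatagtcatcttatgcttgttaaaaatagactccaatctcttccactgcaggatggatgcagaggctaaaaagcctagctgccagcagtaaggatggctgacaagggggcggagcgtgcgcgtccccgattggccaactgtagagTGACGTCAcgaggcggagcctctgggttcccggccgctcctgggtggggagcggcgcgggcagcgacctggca
Ptprn: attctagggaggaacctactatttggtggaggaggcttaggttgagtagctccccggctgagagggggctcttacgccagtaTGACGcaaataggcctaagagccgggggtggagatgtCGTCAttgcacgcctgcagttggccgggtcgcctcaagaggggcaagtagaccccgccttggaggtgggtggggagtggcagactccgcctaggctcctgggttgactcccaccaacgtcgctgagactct
Anxa10: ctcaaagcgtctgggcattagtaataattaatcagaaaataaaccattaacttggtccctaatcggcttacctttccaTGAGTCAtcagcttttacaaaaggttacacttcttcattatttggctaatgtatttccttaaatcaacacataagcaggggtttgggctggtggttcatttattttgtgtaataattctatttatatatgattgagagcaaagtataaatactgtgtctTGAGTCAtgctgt
Itgb6: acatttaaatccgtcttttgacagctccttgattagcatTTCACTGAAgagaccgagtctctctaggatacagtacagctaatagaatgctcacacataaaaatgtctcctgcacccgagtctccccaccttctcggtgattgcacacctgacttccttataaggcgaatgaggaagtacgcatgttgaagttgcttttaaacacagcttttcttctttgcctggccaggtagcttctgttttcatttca

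The transcript of the receptor that landiolol blocks was not called, while Crem, a transcription factor of cAMP signalling, fell. Adrb1, the β1 receptor, differed by 0.03 ± 0.18 (95% interval -0.34 to 0.41, adjusted p = 0.941). Among 23 genes of adrenergic receptors, G proteins and receptor kinases, 0 were called, 15 were higher and 8 lower, and their median was 0.03 against 0.01 over the 13631 genes with a symbol. An unadjusted p under 0.05 was found for 5 of the 23, and SAM called 1 and array weights 4. Over the 13631 genes with a symbol 1.80% were called and 16.4% had an unadjusted p under 0.05, while SAM called 3.95% and array weights 6.39%. Grk5, a kinase that desensitises β receptors, differed by -0.34 ± 0.15 through its brightest probe, which was not called (adjusted p = 0.293). Its other probes fell by 0.77 ± 0.14 and 0.83 ± 0.19 (adjusted p = 0.0128 and 0.0436), so the probes of Grk5 disagree about the call and share the direction.

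Crem encodes activators and, from an internal promoter that cAMP switches on, the repressor ICER. Its brightest probe, at chr17:62836962-62837021 (rn4), read 13.34, 12.72, 13.19, 13.14 and 12.96 on the CLP arrays. With landiolol the levels were 11.31, 11.73 and 12.05 (lowest, median, highest), beside a sham mean of 11.76 ± 0.32. The groups did not overlap, and the level with landiolol was within 1 SD of sham. It fell by 1.35 ± 0.18 (2.56-fold, adjusted p = 0.00249), and 3 other Crem probes fell by 1.61 to 1.63 (adjusted p = 0.000533, 0.000533 and 0.00496). The fifth and dimmest probe differed by -0.71 (adjusted p = 0.367). Which Crem transcripts the probes cover was not examined. Crem was the 1 gene called of 33 cAMP-responsive and immediate early transcription factors (3.03%, against 1.80% over all genes with a symbol), with 16 of them higher and 17 lower. Fos at -0.20, Nr4a1 at -0.05 and Sik1 at -0.35 were not called.

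Of 46 genes of cAMP, protein kinase A, phosphodiesterases and anchoring proteins, 1 rose and 1 fell (4.35%, against 1.80%), with a median of 0.15. Pde10a, a phosphodiesterase of cAMP and cGMP, stood at 10.003, 9.01, 10.45, 10.05 and 9.66 in CLP and at 7.98, 8.51 and 9.29 with landiolol. The groups overlapped through CLP replicate 2, and it fell by 1.22 ± 0.27 (adjusted p = 0.0314). Akap6, which anchors protein kinase A at the nuclear envelope and sarcoplasmic reticulum of muscle cells, was at 9.20, 9.04, 8.63, 8.87 and 8.73 in CLP and 9.32, 9.41 and 9.74 with landiolol. It rose by 0.57 ± 0.12 (adjusted p = 0.0296), to between the CLP level and the sham mean of 10.01 ± 0.15. Pde4b, at -1.50 (adjusted p = 0.0509), and Pde7b, at -0.94 (adjusted p = 0.0591), missed the threshold. Ppp2ca, the catalytic subunit of protein phosphatase 2A, at -0.26 ± 0.13, Plcb4, a phospholipase C, at 0.28 ± 0.10, and Gucy1a2, a subunit of guanylyl cyclase, at 0.43 ± 0.21, were not called (adjusted p = 0.381, 0.215 and 0.361). The call of Pde10a ended without any 1 of 7 arrays (adjusted p up to 0.101, without CLP replicate 4) and that of Akap6 without any 1 of 6 (up to 0.0921, without CLP replicate 3), while that of Crem held whichever array was left out.

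Il6r, Stat3 and Mapkapk2 of cytokine signalling were lower with landiolol. Il6r, the receptor chain that binds interleukin 6, had CLP levels of 8.93, 9.18, 9.74, 10.07 and 9.43. Landiolol levels of 7.78, 8.07 and 8.40 lay apart from them and around the sham mean of 7.91 ± 0.38, and it fell by 1.38 ± 0.21 (adjusted p = 0.00496). Stat3, the transcription factor downstream of that receptor, went from 12.72, 12.91, 13.44, 13.56 and 13.46 to 12.22, 12.33 and 12.79. It overlapped by CLP replicate 1 and fell by 0.82 ± 0.17 (adjusted p = 0.0236), to between the CLP and the sham level of 11.62 ± 0.19. Of 45 genes of the IL-6 family, JAK, STAT and SOCS these 2 were called (4.44%, against 1.80%), and the median was -0.05.

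Mapkapk2, a kinase activated by p38 that stabilises cytokine mRNA, was at 15.66, 15.59, 16.26, 15.84 and 15.32 in CLP and at 14.10, 14.36 and 15.01 with landiolol. It fell by 1.25 ± 0.19 with no overlap (adjusted p = 0.00496). Its activator Mapk14 (p38α) differed by -0.78 ± 0.20 and was not called (adjusted p = 0.0608), and a second probe differed by -0.97 (adjusted p = 0.0563). Dusp26, a phosphatase that acts on MAP kinases, rose by 1.09 ± 0.18 (adjusted p = 0.00757) above its sham level of 10.04 ± 0.28, so 2 of 52 MAP kinases and dual-specificity phosphatases with their substrates were called, in opposite directions (3.85%, against 1.80%). In IL-1, Toll-like receptor and NF-κB signalling 0 of 44 genes were called (against 1.80%), and Nfkb1 was at -0.32 ± 0.12. Tnfrsf21, a death receptor, fell by 0.83 ± 0.19 and was the 1 member called of 27 ligands and receptors of the TNF superfamily (3.7%, against 1.80%).

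Growth factor genes moved both ways. Fgf2, a fibroblast growth factor released by stressed muscle, read 8.89, 9.23, 9.63, 9.75 and 9.78 in CLP and 7.95, 8.42 and 8.87 with landiolol. The highest landiolol array, 8.87, lay just under the lowest CLP array, 8.89, and it fell by 1.02 ± 0.19 (adjusted p = 0.0159). Irs1, an adaptor of the insulin receptor, rose by 0.95 ± 0.17 (adjusted p = 0.012) to above its sham mean of 5.98 ± 0.13, and Ctgf, a matrix-associated growth factor induced by TGF-β and by stretch, rose by 1.38 ± 0.31 (adjusted p = 0.0368), with its groups overlapping at landiolol replicate 5. Fgf2 was not called without CLP replicate 3 or 4 (adjusted p up to 0.0615). Stat3, Tnfrsf21 and Ctgf lost their calls without any 1 of 6, 8 and 8 arrays, with adjusted p of up to 0.0808 and 0.118 without CLP replicate 4 and 0.111 without CLP replicate 3. Il6r, Mapkapk2, Dusp26 and Irs1 were called whichever array was left out, but Irs1 was not called when only the 11 arrays compared were fitted (adjusted p = 0.0537).

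Hmox1, Mt1a, Mt2A and Lcn2, genes of heme breakdown, metal binding and acute defence, fell with landiolol and stayed above their sham means. Hmox1, heme oxygenase 1, was at 13.19, 13.80, 14.51, 14.49 and 13.80 in CLP, at 11.55, 12.20 and 12.88 with landiolol and at 11.05 ± 0.34 in sham. It fell by 1.75 ± 0.27 (adjusted p = 0.00496), and as 1 of the 15 largest falls it was chosen for not overlapping. Mt1a, a metallothionein that binds zinc and copper, read 17.23, 17.38, 17.84, 17.97 and 17.68 in CLP and 15.18, 15.95 and 16.76 with landiolol, and fell by 1.64 ± 0.28 (adjusted p = 0.00757). Its neighbour Mt2A, less than 10 kb away on rn4 chromosome 19, fell by 1.26 ± 0.27 (adjusted p = 0.0297), overlapping through CLP replicate 1 and landiolol replicate 1. The metallothioneins are close in sequence, so their probes may share signal. These were the 3 genes called of 34 in the antioxidant response and metallothionein list (8.82%, against 1.80%), where 23 were lower and 11 higher and the median was -0.20. Nqo1 at -0.67, Txnrd1 at -0.81 and Sod2 at -0.14 were not called.

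Lcn2, the secreted lipocalin that withholds iron from bacteria, was at 14.05, 15.91, 15.89, 15.45 and 15.16 in CLP, at 13.19, 13.49 and 14.78 with landiolol and at 10.20 ± 0.22 in sham. It fell by 1.53 ± 0.33 (adjusted p = 0.0314) and overlapped because CLP replicate 1 was the lowest CLP array. Lcn2 with Mt1a and Mt2A made 3 of 31 glucocorticoid-responsive genes called (9.68%, against 1.80%), while Fkbp5 at 0.17, Tsc22d3 at 0.24 and Per1 at 0.06, classical targets of that receptor, were not. Slc7a5, a carrier of large neutral amino acids, fell by 1.82 ± 0.39 and Nupr1, a stress-induced nuclear protein, rose by 1.36 ± 0.32, the 2 genes called of 43 in the list of ER stress (4.65%, against 1.80%). Bcl2, which restrains cell death, differed by 0.68 ± 0.19 (adjusted p = 0.0955), and 0 of 44 genes of the BCL2 family and cell death were called (against 1.80%). Without CLP replicate 4 the calls of Mt2A, Lcn2, Slc7a5 and Nupr1 ended (adjusted p = 0.101, 0.0982, 0.0964 and 0.135), as they did without any 1 of 8, 8, 6 and 13 arrays in all. Hmox1 and Mt1a were called whichever array was left out.

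Beside Cyp2e1, the oxidising enzymes Aldh1a1 and Cyp27a1 rose. Aldh1a1, which makes retinoic acid, had CLP levels of 12.42, 12.59, 12.20, 11.88 and 12.23 and landiolol levels of 12.70, 13.30 and 13.85. It rose by 1.03 ± 0.20 with no overlap (adjusted p = 0.018) and lay above its sham mean of 12.24 ± 0.35. Cyp27a1, a sterol hydroxylase of mitochondria, rose by 0.70 ± 0.14 (adjusted p = 0.0236), from 12.996, 13.07, 13.15, 12.65 and 12.77 to 13.22, 13.59 and 13.99. Of 36 xenobiotic oxidases and conjugating enzymes these and Cyp2e1 were called (8.33%, against 1.80%), 27 were higher and 9 lower, and the median was 0.37. Aox3, an aldehyde oxidase, differed by 1.44 ± 0.39 with levels that overlapped through CLP replicate 1, and missed the threshold (adjusted p = 0.0844). Of 6 liver markers on the array, Alb, Cyp3a2 and Serpina1 were not well above background on any male array. Apoa1 and Tat were well above background on at least 1 male array but did not pass the filter. The 1 liver marker tested, Ttr, lay between 12.89 and 13.503 in CLP and between 12.96 and 13.49 with landiolol.

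In energy metabolism Nmrk2 rose and Fabp5 fell. Nmrk2, a muscle kinase that makes NAD from nicotinamide riboside, was at 5.85, 6.20, 5.25, 4.98 and 6.20 in CLP and 6.67, 7.54 and 8.43 with landiolol. The groups lay apart and the rise was 1.82 ± 0.36 (adjusted p = 0.0214), yet the highest landiolol array remained below the lowest sham array, 9.49. Fabp5, a fatty acid binding protein, fell by 0.83 ± 0.19 with no overlap (adjusted p = 0.0373), the 1 gene called of 53 in fatty acid uptake, storage and oxidation (1.89%, against 1.80%). Nmrk2 was also the 1 gene called of 29 in NAD synthesis and consumption (3.45%), and it was not called with normexp (a difference of 1.04, adjusted p = 0.054). Among 55 genes of the respiratory chain and ATP synthase 0 were called and the differences ran from -0.51 to 0.38 around a median of -0.01. Glycolysis and glycogen (46 genes), cholesterol synthesis (34) and the circadian clock (24) had 0 called genes each. Over all genes with a symbol 1.80% were called, a share at which lists of such lengths, the respiratory chain included, can hold 0. Leaving out CLP replicate 4 ended the calls of Aldh1a1, Cyp27a1, Nmrk2 and Fabp5 (adjusted p = 0.0656, 0.081, 0.0732 and 0.124), and in all 2, 4, 3 and 8 arrays did so, while that of Cyp2e1 held without each of them.

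Asb18, Tuba8 and 2 potassium channels rose and Myot fell. Asb18, a muscle partner of Asb15 in its protein family, was at 8.37, 9.21, 8.04, 7.91 and 9.23 in CLP and at 8.92, 10.68 and 11.86 with landiolol. It rose by 2.10 ± 0.46 (adjusted p = 0.0313), with landiolol replicate 5 inside the CLP range and the other arrays above it. In the list of Asb18, muscle atrophy, FoxO and ubiquitin ligases, 2 of 36 genes were called (5.56%, against 1.80%). Tuba8, a muscle α-tubulin, went from 13.10, 12.66, 12.75, 12.37 and 12.44 to 13.10, 13.48 and 13.74, a rise of 0.81 ± 0.15 (adjusted p = 0.0168) that left it below the sham mean of 14.57 ± 0.22. Myh7b, a slow myosin heavy chain, differed by 1.04 ± 0.30 and was not called (adjusted p = 0.111). Myot, a Z-disc protein that binds actin, was the 1 gene called of 49 in the sarcomere and Z-disc list (2.04%, against 1.80%). Its levels were 12.03, 12.14, 12.97, 11.88 and 11.86 in CLP, 10.01, 10.88 and 11.26 with landiolol and 8.89 ± 0.53 in sham, and it fell by 1.43 ± 0.28 (adjusted p = 0.018) and in 2 further probes by 1.24 and 1.61.

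Nfatc2, a transcription factor activated by calcineurin, rose by 1.0 ± 0.18 (adjusted p = 0.0114) through its brightest probe, and 3 dimmer probes differed by 0.18 to 0.47 without a call. Kcnj8, the pore of vascular ATP-sensitive potassium channels, rose by 0.78 ± 0.17 and Kcnn1, a calcium-activated potassium channel, by 0.75 ± 0.12 (adjusted p = 0.0316 and 0.00656). Both reached their sham means of 11.82 and 6.94 and did not overlap with CLP, and they were the 2 genes called of 36 potassium channels (5.56%, against 1.80%). A dimmer second probe of Kcnn1 differed by -0.02 and was not called (adjusted p = 0.976), so the rise of Kcnn1 rests on its brightest probe. In the cytoskeleton list Actr3b, Tuba8 and Rac2 rose and Cntnap1 fell, 4 of 67 genes (5.97%, against 1.80%). Calcium channels and calcium cycling, the proteins that control each beat, had 0 of 49 genes called (against 1.80%) and a median of 0.07. The calcium pump Atp2a2 was at -0.07, Ryr2 at -0.19 and Pln at -0.35. Tuba8 was not called without CLP replicate 4 (adjusted p = 0.0641), nor Myot without CLP replicate 3 (adjusted p = 0.0501). Asb18 lost its call without any 1 of 6 arrays and Kcnj8 of 8 (adjusted p up to 0.104 and 0.0881), and Nfatc2 and Kcnn1 kept it throughout.

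**Figure D2:**
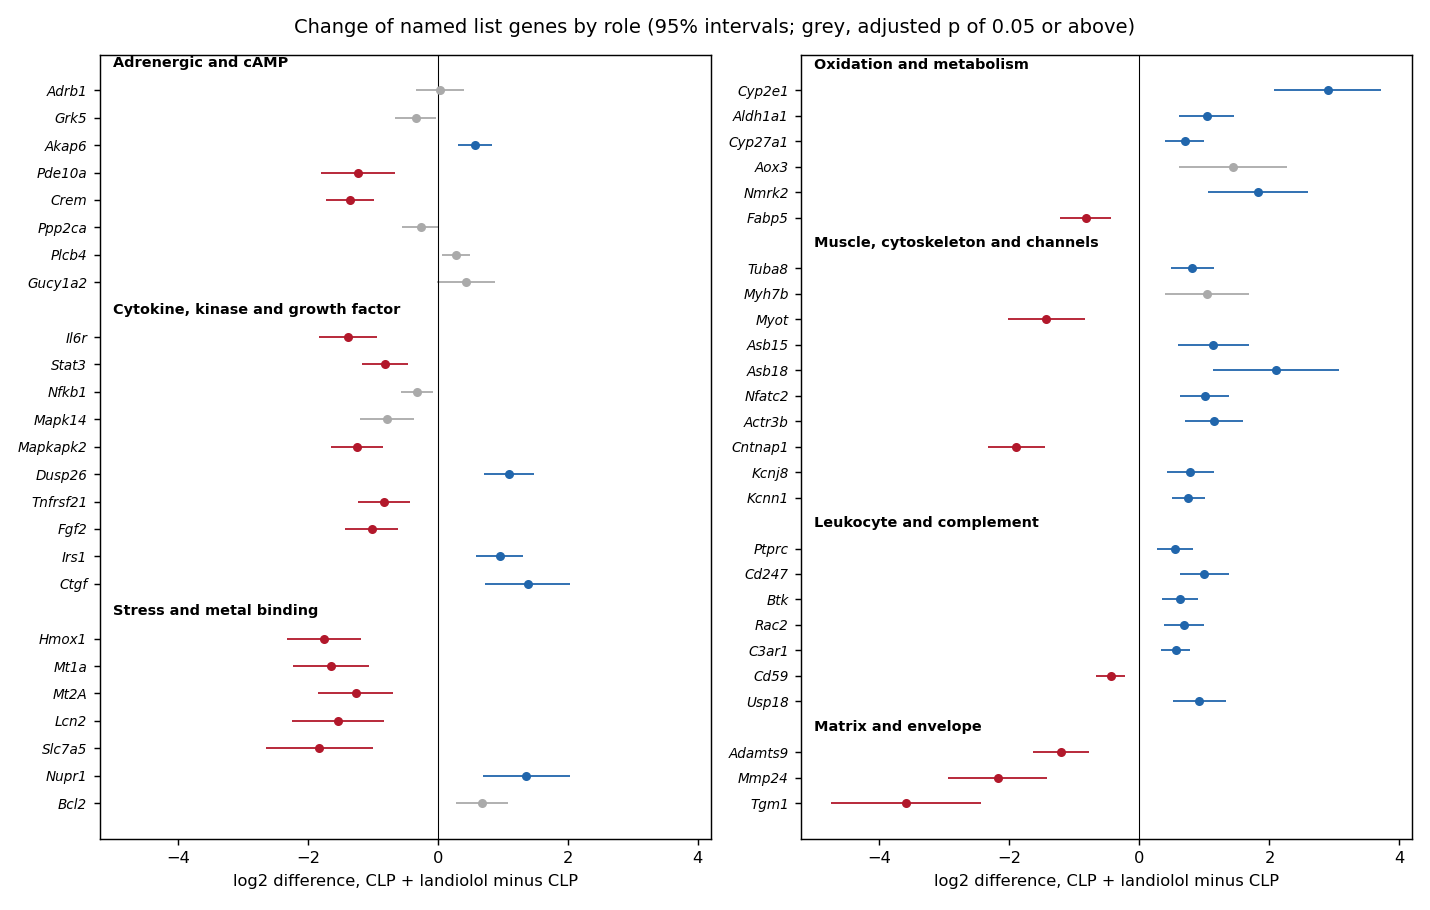
Log2 difference between the CLP plus landiolol and the CLP group for 51 genes, sorted by role, with 95% intervals of the limma fit. Blue marks genes that rose, red genes that fell and grey genes whose adjusted p was not under 0.05, so the interval of the receptor Adrb1 covers 0 in grey while Crem sits at -1.35 in red.

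Of leukocyte and complement genes Ptprc, Cd247, Btk, Rac2 and C3ar1 rose, and Cd59 fell. Ptprc (CD45, carried by all leukocytes) rose by 0.55 ± 0.13, Cd247, the ζ chain of the T cell receptor, by 1.0 ± 0.18 and Btk, a kinase of B and myeloid cells, by 0.62 ± 0.13. On the CLP arrays Cd247 read 5.16, 5.50, 6.16, 5.86 and 6.06, against 6.35, 6.76 and 7.02 with landiolol, and the groups did not overlap (adjusted p = 0.0123). These 3 were called of 34 lymphocyte and T cell receptor genes (8.82%, against 1.80%), 27 of which were higher, and the median was 0.30. Rac2, a GTPase of blood cells, rose by 0.68 ± 0.15 and C3ar1, the receptor for complement C3a, by 0.56 ± 0.11, both above sham means of 10.09 and 7.36. Cd59, which shields cells from complement, fell by 0.44 ± 0.10 to 12.86, 12.96 and 13.01 from 13.04, 13.43, 13.61, 13.46 and 13.42 (adjusted p = 0.0446). C3ar1 and Cd59 were the 2 genes called of 41 in complement and coagulation (4.88%, against 1.80%). Without CLP replicate 3 the calls of Ptprc, Btk and Rac2 ended (adjusted p = 0.133, 0.0849 and 0.0912), and without CLP replicate 4 those of C3ar1 and Cd59 (adjusted p = 0.0556 and 0.133). In all 13, 7, 7, 1 and 14 arrays ended these calls. None ended that of Cd247, which was not called when only the 11 arrays compared were fitted (adjusted p = 0.0537) and differed by 0.52 with normexp.

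Among 46 interferon-stimulated genes 40 were higher and 6 lower, with the highest median of the 40 lists at 0.48, and 1 was called (2.17%, against 1.80%). That gene was Usp18, which removes ISG15 from proteins and curbs the interferon receptor. It read 7.28, 8.06, 7.70, 7.61 and 7.99 in CLP, 8.23, 8.65 and 9.03 with landiolol and 9.09 ± 0.39 in sham, a rise of 0.92 ± 0.19 with no overlap (adjusted p = 0.0272), and without any 1 of 5 arrays it was not called (adjusted p up to 0.0854, without CLP replicate 4). By SAM, the test of the study's methods, 9 of the 46 were called, and 7 with array weights. Over all genes with a symbol SAM called 3.95% and array weights 6.39%. Rsad2 at 1.72, Isg15 at 0.99 and Mx1 at 0.74 were not called (adjusted p = 0.1, 0.142 and 0.0994). The lists of chemokines and their receptors (36 genes, without Ccr9) and of antigen presentation by MHC class II (13) had 0 called genes (against 1.80%).

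Markers of the cell types that a ventricle can hold were read list by list. Each list had only 1 to 10 tested markers. Over all genes with a symbol 1.80% were called and 16.4% had an unadjusted p under 0.05, so lists this short can hold 0 calls by their size alone. Of 18 marker lists, 17 had 0 called genes, and the exception was Kcnj8 among 8 markers of smooth muscle and pericytes. All 8 were higher, with a median of 0.33, and their summed level ran from 13.64 to 14.21 in CLP and from 13.95 to 14.58 with landiolol. All 5 T cell markers tested and all 5 of NK cells were also higher, without a call. Summed T cell markers ran from 10.76 to 11.02 in CLP and from 10.90 to 11.24 with landiolol (Cd5 never above background), and NK cell markers from 8.44 to 9.51 and from 9.09 to 10.16. Macrophage and monocyte markers ran from 15.72 to 16.16 and from 15.35 to 16.13 (9 markers, median difference -0.04), and neutrophil markers from 8.11 to 9.96 and from 8.50 to 10.06, where Mmp8, Ngp and Np4 were never above background. Of the 3 neutrophil markers tested S100a8 differed by 1.06, S100a9 by 1.22 and Il1r2 by -0.25, with 2 under an unadjusted p of 0.05 and a median of 1.06. Platelet markers ran from 10.65 to 11.34 and from 9.96 to 10.74 (3 markers, median difference -0.55, 2 under an unadjusted p of 0.05, with Ppbp and Gp1ba never above background). Markers of Schwann cells and neurons ran from 8.67 to 9.85 and from 9.18 to 10.46, and those of erythroid cells from 10.16 to 12.12 and from 10.71 to 13.15. All these ranges overlap. Ms4a1, a marker of B cells, was never above background. The part of such cells in the leukocyte genes above was not tested.

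A pair of metalloproteinases fell. Mmp24, a membrane-bound metalloproteinase, was at 9.57, 10.48, 9.86, 10.73 and 9.87 in CLP, 7.19, 7.94 and 8.59 with landiolol and 6.06 ± 0.87 in sham, and fell by 2.18 ± 0.36 (adjusted p = 0.00699). Adamts9, a secreted protease of proteoglycans, went from 12.03, 11.65, 12.07, 12.31 and 12.25 to 10.48, 10.72 and 11.27 and fell by 1.21 ± 0.20 (adjusted p = 0.00757), with a dimmer probe that fell by 1.65. The groups did not overlap in Adamts9, while Mmp24, 1 of the 15 largest falls, was chosen for not overlapping. With landiolol Adamts9 was close to its sham mean of 10.47 ± 0.43 while Mmp24 stayed above its own. They were the 2 genes called of 31 matrix proteases and inhibitors (6.45%, against 1.80%). Collagens and matrix proteins had 0 of 52 called (against 1.80%), and 36 of the 52 were higher, with a median of 0.16.

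Counted over the 40 pathway lists, 25 held at least 1 called gene and 0 held more than 4. Medians lay between -0.20, for the antioxidant response and metallothioneins, and 0.48, for the interferon-stimulated genes. The 15 lists with 0 called genes, such as heat shock chaperones and endothelial junctions, held 584 tested members, of which 97 had an unadjusted p under 0.05 (16.6%, against 16.4% of all genes with a symbol), 14 were called by SAM (2.4%, against 3.95%) and 34 with array weights (5.82%, against 6.39%). In the respiratory chain these numbers were 1, 0 and 1 of 55, in calcium cycling 8, 1 and 1 of 49, and in collagens and matrix 17, 2 and 3 of 52.

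**Figure D3:**
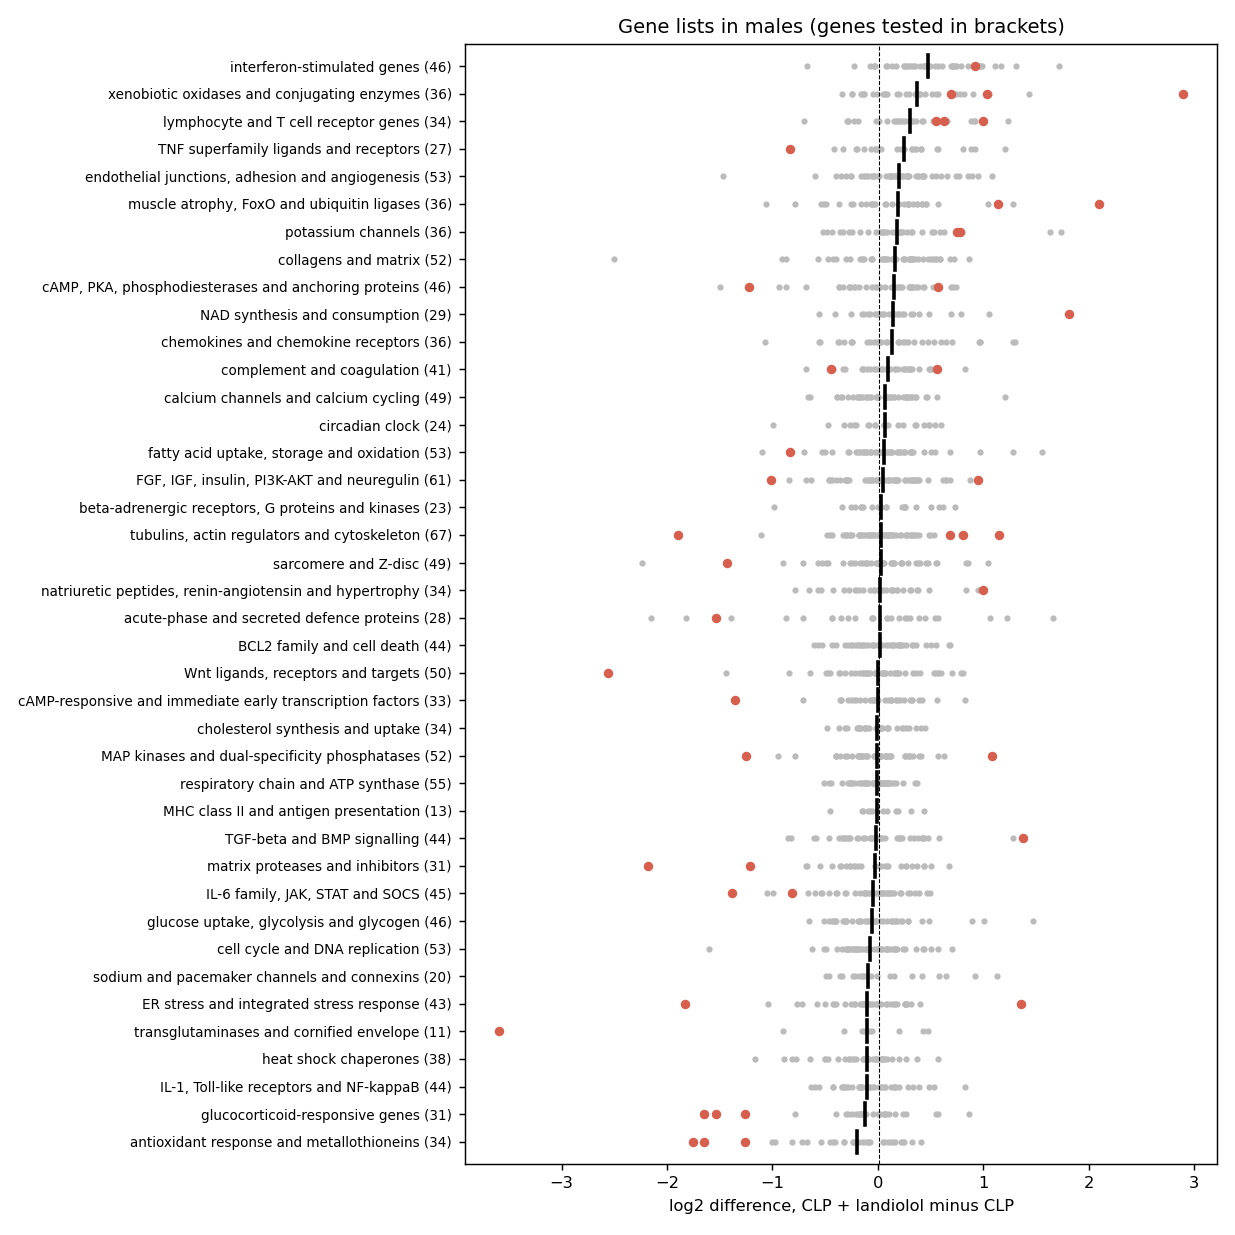
Log2 difference of every tested gene in the 40 pathway lists (grey points), with called genes in red and the median of each list as a black bar. The dashed line is the median of all 13631 genes with a symbol, 0.01, and called genes stand at the ends of lists whose medians stay between -0.20 and 0.48.

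The 11 arrays did not contribute evenly. In 192 of the 403 called probes (47.6%) CLP replicate 1 was the CLP array nearest to the landiolol mean, while CLP replicates 3 and 4 were nearest in 22 and 17. On the landiolol side no array was nearest to the CLP mean in more than 92 probes, a number reached by replicate 5. Among genes picked after their values were seen, CLP replicate 1 was the lowest CLP array in Lcn2, Stat3, Slc7a5, Mt2A and Tgm1, at 14.05, 12.72, 6.10, 16.52 and 11.32. All 403 differences had the same direction on both slides, a count that the choice by the pooled test favours. On slide 1, with 3 CLP and 3 landiolol arrays, Crem fell by 1.58 and Cyp2e1 rose by 2.55, and on slide 2, with 2 and 3, by 1.12 and 3.5. Asb18 and Myot were larger on slide 1 (2.74 against 1.45, and -1.97 against -0.78), and Fabp5 and Mt2A on slide 2 (-1.36 against -0.41, and -1.94 against -0.70), and these differences between slides were not tested. With slide as a term in the fit 409 genes were called. When the 6-digit code in the sample titles was read as a day and entered as a linear term, 123 were. Of the 64 named probes called, 31 were not called in that fit, 29 were not when only the 11 arrays compared were fitted, and 17 were not with no filter.

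Female rats underwent the same treatments, 5 with CLP and 6 with CLP and landiolol, on arrays of their own. Of the 403 probes called in males 385 were also tested in females, and 362 of them (94.0%) differed in the same direction, against 62.9% of all 24768 probes tested in both sexes. The median difference in females was 0.51 for the probes that were higher in males, whose own median was 0.90, and -0.49 for those lower, whose own median was -1.0. The male values were picked for their size and the female values were not, so a smaller female median follows from the choice in part. In females 24 probes were called, 14 of them among the 403. Of the named genes Pde10a, at -1.05 ± 0.15 in females (adjusted p = 0.0268), Ttc27, at -1.82 ± 0.28 (adjusted p = 0.0323), Cntnap1, at -1.71 ± 0.28 (adjusted p = 0.0461), Cenpa, at -2.45 ± 0.41 (adjusted p = 0.0468), Asb18, at 2.21 ± 0.37 (adjusted p = 0.0468), and Actr3b, at 1.23 ± 0.22 (adjusted p = 0.0498), were called in both. Crem differed by -1.24 ± 0.30 in females and was not called (adjusted p = 0.136).

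The difference between the sexes was itself tested, and 0 of 26490 probes passed at 5% (limma interaction, smallest adjusted p = 0.45), with 1307 under an unadjusted p of 0.05. That test used all 32 arrays normalised together, so its values differ slightly from the difference of both fits. Cyp2e1 was at 0.87 ± 0.36 in females, and its male minus female difference was 1.98 ± 0.55 (adjusted p = 0.969). The corresponding values were -0.29 ± 0.33 and -1.87 ± 0.51 for Mmp24 (adjusted p = 0.929) and -1.24 ± 0.30 and -0.11 ± 0.36 for Crem (adjusted p = 0.988). Cd247, Usp18 and Nupr1 had opposite signs in the sexes, with female differences of -0.27 ± 0.28, -0.34 ± 0.47 and -0.27 ± 0.40, and none of the 3 passed the test of the difference. No call that males have and females lack was thus shown to differ between the sexes.

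**Figure D4:**
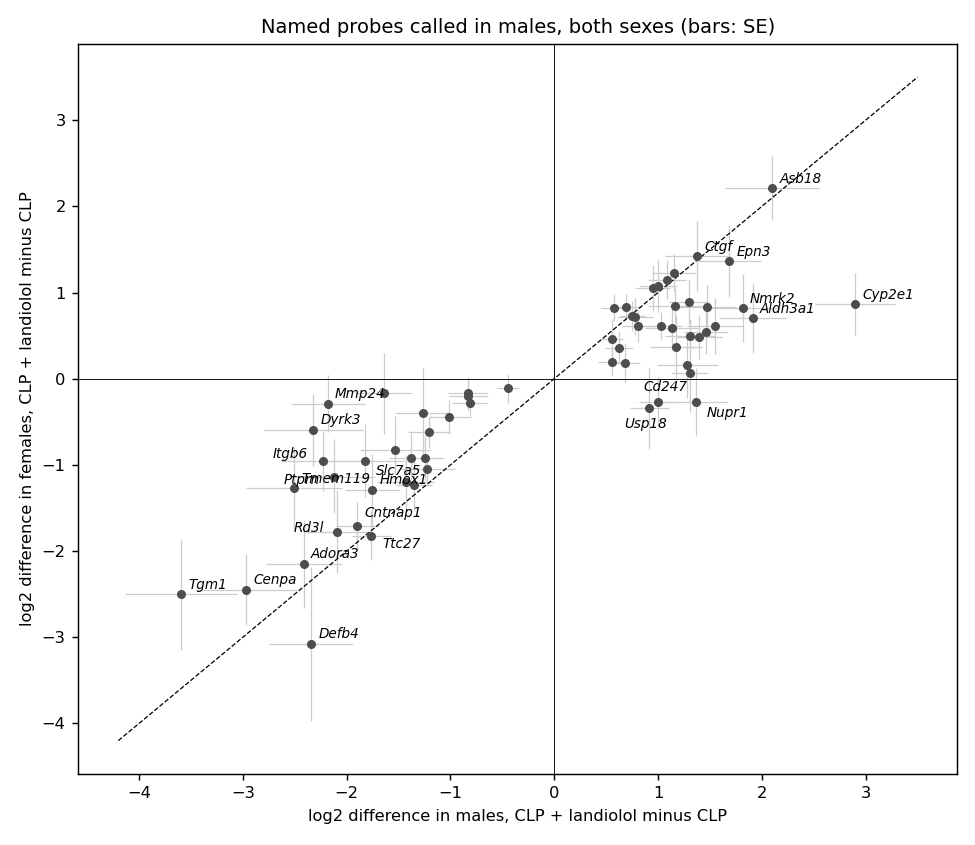
Log2 difference between CLP plus landiolol and CLP in females against that in males, for the 62 named probes called in males and tested in both, with bars of 1 SE and a dashed line of equality. In 59 of the 62 the direction is the same, and 52 lie nearer to 0 in females, among them Cyp2e1 and Mmp24, while Cntnap1, Ttc27 and Asb18 lie near the line.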

How the data were processed

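Left ventricular RNA of 32 rats was hybridised to 1-colour Agilent arrays, 1 rat an array, and the 16 arrays of males were used here, with the 16 female arrays added for the comparison of sexes. The authors deposited scanner files made with Agilent Feature Extraction 10.5, whose processed signal is an intensity after background subtraction on a linear scale, and a table of log2 values normalised by the authors, which served as an alternative. Each array held 58717 spots that were not controls, averaged to 45598 probes. The number of arrays limits the precision, since intensities carry no counts.

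Processed signals were taken to log2 and quantile-normalised over the 16 male arrays (R 4.3.3, limma 3.58.1). A probe was kept if at least 80% of the arrays of any 1 of the 3 male groups were marked well above background for it. limma was fitted to the 3 male groups together, so that sham arrays share in the estimate of the spread, with eBayes and a false discovery rate of 5%. The difference between the sexes was an interaction term over all 32 arrays. Samples were grouped by the sex and treatment in their labels. Gene names came from the male files for 24778 probes, from RefSeq for 774 and from the female files for 3404, and 16642 had none. The script was tested on simulated data.

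Named were the 15 genes that rose most and the 15 that fell most among those called, named in the male files, well above background on every array of 1 of the groups and not overlapping, each called member of 40 pathway lists and 18 cell type lists (1 probe a gene, the brightest, matched by symbol or by an older symbol that no other gene bears), and a short list of genes named whether called or not. The members and lists were chosen with earlier results of these data known. Alternatives covered scaling, background, filter, model terms, threshold, the authors' log2 values, SAM (100 permutations) and leaving out each array. Probe positions are those of the scanner files (rn4), and promoter sequences are from RefSeq (GRCr8). A few genes of the lists are not reported here by name.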

Additional observations from a re-analysis of the deposited data

Results flagged for a closer look

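The 156 groups checked were those of named probes and, beside them, of the spots above background and the median signals. In 4 of the 156 (2.56%), all of named probes, 1 array stood apart from its group by more than Dixon's limit. Chance passes that limit in about 1 group of 20. Ccr9 on CLP replicate 1 was at 9.67, above the 8.96 to 9.07 of the other CLP arrays and below all landiolol arrays. Myot on CLP replicate 3 was at 12.97, where the next CLP array was at 12.14. Grk5, through the probe that was not called, was at 9.81 on landiolol replicate 1 and at 9.47 to 9.55 on the other 5. Rac2 was at 11.75 on landiolol replicate 3, the lowest of its group, with the next at 12.13.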

How the results depend on the processing

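The 361 genes called became 161 (78 higher, 83 lower) when only the 11 arrays compared were normalised and fitted, 145 (68 and 77) when only they were fitted, 229 (113 and 116) with no filter, 123 (53 and 70) with the title code as a linear term, and 78 (30 and 48) at a false discovery rate of 1%. They became 1281 (676 and 605) with array weights, which gave landiolol replicate 5 and CLP replicate 1 low weights (0.297 and 0.414), and 769 (442 and 327) by SAM on the 11 arrays. Leaving out each male array in turn gave 113 to 950 genes called, 53 to 486 higher and 60 to 464 lower. Scaling to the 75th percentile, quantiles over 32 arrays, normexp or no background correction, a filter over all male arrays, eBayes with trend, slide or slide row as a term, 1 probe per gene and the authors' log2 table gave 286 to 445, as did the number of spots above background as a term (442), an alternative chosen after seeing the data. The causes of these moves were not tested beyond what each setting changes by itself. For the difference between the sexes 0 probes were called under each alternative. Leaving out each CLP or landiolol array of either sex gave 0 to 1 (1 without female landiolol replicate 4), and sham arrays were not left out there. Of the 64 named probes called, 22 passed under all 34 settings with a test, 30 passed whichever male array was left out, and 0 reversed. In 17 of the 64, dim probes among them, the difference was smaller by over 1.5 times with normexp, no background correction or the authors' log2 table. No paired analysis was possible because the labels give no replicate numbers and tie no rats into pairs.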
